A study of Mus musculus with 4 samples.

Results

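Levels of 10 genes that encode enzymes of DNA methylation and of Polycomb repression were read from expression arrays of Comma D beta cells, a mouse mammary epithelial line. The genes were Dnmt1, Dnmt3a, Dnmt3b, Uhrf1, Hells, Tet1, Tet2, Ezh2, Suz12 and Eed, chosen by symbol in the array annotation, out of 18194 genes with a named probe set. They were covered by 30 of the 45101 probe sets on the array. The cells grew overnight in medium with 2% serum, EGF (10 ng/ml) and insulin (5 ug/ml). Doxycycline (dox) was then given at 100 ng/ml for 1 day or left out, and equal numbers of Sca1+ and Sca1- cells, told apart by antibody staining of this surface protein, were sorted from each condition. The 4 groups, each with 1 array, were therefore the Sca1+ and Sca1- fractions of untreated and of dox-treated cells, and all of them came from the same cell line. The labels do not say what dox controls in these cells, and they name no control for dox alone.

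DNA methyltransferases add a methyl group to cytosine in CpG dinucleotides. Dnmt1 copies the mark onto the new strand after DNA replication, guided by Uhrf1, which binds hemimethylated DNA, and helped by the chromatin remodeller Hells. Dnmt3a and Dnmt3b place the mark at unmethylated sites, and the Tet enzymes oxidize it as a step towards its removal. Polycomb repressive complex 2 (PRC2) methylates lysine 27 of histone H3 through its catalytic subunit Ezh2, which needs Suz12 and Eed. Genes for copying these marks are known to be expressed most in dividing cells, because the marks must be restored each time DNA is replicated.

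Values are log2 expression levels as deposited. The authors set low values to a floor of 3.32, which is the log2 of 10, and 44.8% to 48.0% of probe sets lay at it on each array. A difference against a floor value is a lower bound and is written "at least". Each gene is given by its probe set of highest mean over the arrays (its main probe set), and levels are compared only between arrays and not between genes. Of the 18194 genes, 12264 reached the pooled median of 3.63 on at least 1 array and form the background, and all 10 genes passed. The main probe set was above the floor on every array for 9 of them, Dnmt3b being the other, and 8 had an array at a linear level of 100 or more, all but Dnmt3b and Tet1. With 1 array a group no difference has a replicate check, so genes are counted by size at 2-fold, a log2 difference of 1. As a secondary reading, an additive limma fit of dox and Sca1 over the 4 arrays gave adjusted p values. It treats the fractions of a treatment as independent, while both may have been sorted from 1 culture.

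Bcl11b, the transcription factor gene in the series title, read 6.87 and 6.29 in untreated Sca1+ and Sca1- cells and 12.11 and 11.99 with dox by its main probe set, while 2 of its 3 other probe sets were lower with dox in both fractions. The gene of Sca1 itself, Ly6a, was not analysed here, since no probe set with a single symbol in the annotation carries its name. Of 8 mammary epithelial markers, 7 passed the filter and Krt19 was at the floor on all arrays. The summed linear level of the list was 13030 and 14315 in untreated Sca1+ and Sca1- cells and 9429 and 10946 with dox. With dox, Krt5 was 15.9-fold and 8.76-fold lower in Sca1+ and Sca1- cells, and Krt8 3.32-fold and 3.89-fold lower. These 2 of the 7 were 2-fold lower in both fractions, against 8.56% of all genes, and 0 were higher, against 5.29%. The log2 dox differences in Sca1+ and Sca1- cells were 0.10 and 0.38 for Krt14 and 0.34 and 0.15 for Cdh1. They were 0.07 and -0.79 for Krt18, -1.04 and -0.76 for Epcam and -0.43 and -0.15 for Trp63. Between the fractions, Trp63 was higher in Sca1+ cells, 2.57-fold without and 2.11-fold with dox. Krt8 was lower there, 3.23-fold and 2.75-fold. They were the 1 marker higher and the 1 marker lower by 2-fold in both conditions, against 1.08% and 0.881% of all genes. Krt18 was also lower in Sca1+ cells, 3.02-fold without and 1.67-fold with dox. The leukocyte markers Ptprc, Itgam, Cd3e and Cd79a, the fibroblast markers Col1a1 and Pdgfrb and the endothelial markers Cdh5, Tek and Emcn were at the floor on all 4 arrays. Cd68, a lysosomal gene used as a macrophage marker, read 3.37 and 3.76 in untreated Sca1+ and Sca1- cells and 6.16 on both dox arrays, 6.91-fold and 5.27-fold higher. The fibroblast list summed to 78.9 and 95.4 on the untreated Sca1+ and Sca1- arrays and to 757 and 424 on the dox arrays, mostly from the proteoglycan gene Dcn, which went from the floor to 9.41 and 8.42. The mean dox difference was 5.59 for this Dcn probe set and only 0.29 for the other. The part of these lists in the results was not tested. The 6 leukocyte markers with a probe set summed to 60.3 and 63.7 without dox and to 124 and 122 with it, and the endothelial list to between 50.0 and 53.6 on all arrays.

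The genes that maintain DNA methylation were lower with dox. Dnmt1, Uhrf1 and Hells were each lower in both fractions, and each was lowest in dox-treated Sca1- cells. Hells, the remodeller of the SNF2 family, had the largest dox difference of the 10 genes in Sca1+ cells and was level with Uhrf1 in Sca1- cells: its main probe set read 9.41 in untreated Sca1+, 9.06 in untreated Sca1-, 7.50 in dox Sca1+ and 6.57 in dox Sca1- cells. Both dox arrays lay below both untreated arrays, 3.77-fold lower in Sca1+ and 5.62-fold lower in Sca1- cells. Uhrf1, which recruits Dnmt1 to hemimethylated sites, read 9.27 and 8.73 in untreated Sca1+ and Sca1- cells and 8.03 and 6.24 with dox, 2.36-fold and 5.60-fold lower. The dox Sca1- array stood lowest, 1.79 log2 units under the dox Sca1+ array. Dnmt1, the maintenance methyltransferase, read 9.66 and 9.36 without dox and 8.69 and 7.61 with dox in Sca1+ and Sca1- cells. Its difference was 1.97-fold in Sca1+ cells, just short of the 2-fold rule, and 3.37-fold in Sca1- cells.

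The other probe sets of these genes were also lower with dox in both fractions. Dnmt1 has 3 probe sets, all above the floor on every array, with dox differences of -1.24 to -0.97 in Sca1+ cells and -1.75 to -1.63 in Sca1- cells. The main one carries the suffix x_at, which Affymetrix gives to probe sets whose probes can also match other transcripts, and the other two lay near it. The second Hells probe set above the floor on all arrays gave -1.43 and -1.84. The third read 4.45 and 4.99 in untreated Sca1+ and Sca1- cells and the floor on both dox arrays. The dimmer Uhrf1 probe set went from 6.03 to 4.97 in Sca1+ cells and from 5.61 to the floor in Sca1- cells.

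The promoters of the 10 genes were read because E2F factors often bind genes of the replication phase. A link between the words and the dox differences was not tested. RefSeq start-site windows of assembly GRCm38.p6, 250 bases before to 50 after each start, were available for all 10 genes, 15 windows in all. They were searched on both strands for the 8-base E2F words TTTCCCGC, TTTCGCGC, TTTGCCGC and TTTGGCGC. At least 1 word was in a window of 5 of the 10 genes, against 2.6% of the 27025 genes in the table. By window the shares were 5 of 15 and 2.26% of 32851. Each word holds a CpG, and these shares were not matched for base composition. The windows of the 10 genes with a word had 64.3% to 71.0% G or C and 31 to 41 CpG dinucleotides. Those without had 51.3% to 82.3% and 2 to 57. The Hells window held TTTCCCGC, its first base at position -62 from the start. The 250 bases before the Hells start, at chr19:38930740-38930989 on the plus strand, read as follows, with the word in capitals.
Hells: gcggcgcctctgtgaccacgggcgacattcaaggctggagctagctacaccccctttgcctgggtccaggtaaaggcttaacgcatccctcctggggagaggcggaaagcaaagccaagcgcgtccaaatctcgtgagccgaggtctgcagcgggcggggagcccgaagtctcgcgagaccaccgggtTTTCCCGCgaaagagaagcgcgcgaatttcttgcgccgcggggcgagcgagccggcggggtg
The matches of the other genes are given with their neighbouring bases, 30 bases each, 5′ to 3′ on the strand of the gene, with the word in capitals. They lie at chr17:56304117-56304146 (Uhrf1, plus strand, position -185), chr9:20952824-20952853 (Dnmt1, minus strand, position -219, where the word is on the opposite strand), chr9:20952574-20952603 (Dnmt1, minus strand, position 34 of the same window), chr6:47595009-47595038 (Ezh2, minus strand, position 4) and chr11:79992876-79992905 (Suz12, plus strand, position -219).
Uhrf1: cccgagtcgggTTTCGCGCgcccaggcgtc
Dnmt1, upstream: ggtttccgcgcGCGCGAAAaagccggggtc
Dnmt1, downstream: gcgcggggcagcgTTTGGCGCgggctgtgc
Ezh2: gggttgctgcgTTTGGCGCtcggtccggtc
Suz12: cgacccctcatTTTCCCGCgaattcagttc
The windows of Dnmt3a, Dnmt3b, Tet1, Tet2 and Eed held none of these letters, which says nothing about binding elsewhere. Of these, Dnmt3b, Tet1 and Eed were also lower with dox in both fractions, and Dnmt3a and Tet2 were higher. The pentamer CCAAT was in a window of 5 of the 10 genes against 41.1% of all genes, and TTTGAA, the core of the cell-cycle homology region, in 4 of 10 against 20.2%. The letters are a description of these windows, and no binding was measured.

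The de novo methyltransferases went in opposite directions. Dnmt3a was higher with dox: it read 6.07 in untreated Sca1+, 6.90 in untreated Sca1-, 7.54 in dox Sca1+ and 7.69 in dox Sca1- cells. Both dox arrays lay above both untreated arrays, 2.77-fold in Sca1+ and 1.74-fold in Sca1- cells. Its 4 probe sets above the floor on all arrays gave dox differences of 1.24 to 1.73 in Sca1+ and 0.55 to 0.85 in Sca1- cells, and the fifth, near the floor, was also higher. Dnmt3b was close to the floor throughout and lower with dox. It read 4.48 and 4.61 without dox in Sca1+ and Sca1- cells, 3.69 in dox Sca1+ cells and the floor in dox Sca1- cells, a difference of 2.44-fold or more. All 4 values lie under a linear level of 32, so its direction rests on dim signals.

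Tet1 and Tet2 differed by less than 2-fold in every comparison. Tet2, which oxidizes 5-methylcytosine, read 6.22 and 6.42 in untreated Sca1+ and Sca1- cells and 6.70 and 7.03 with dox. The dox arrays were higher, 1.40-fold in Sca1+ and 1.53-fold in Sca1- cells, and the second probe set gave 0.63 and 0.35 on the log2 scale. Tet1, a dim gene here, read 4.85 and 5.09 without dox and 4.37 and 4.73 with it, differences of -0.48 and -0.36. Of its 4 probe sets, 2 were at the floor on all arrays.

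The core subunits of PRC2 were lower with dox, by less than 2-fold for their main probe sets. Ezh2, the histone methyltransferase, has a single probe set, which read 10.20 and 9.60 in untreated Sca1+ and Sca1- cells and 9.51 and 8.84 with dox. The dox arrays were 1.62-fold lower in Sca1+ and 1.70-fold lower in Sca1- cells. Because the untreated Sca1- and dox Sca1+ arrays were 9.60 and 9.51, the highest dox value lay just under the lowest untreated one. Suz12, the scaffold of the complex, read 9.61 and 9.35 without dox and 8.91 and 8.83 with it, 1.62-fold and 1.43-fold lower. All 6 of its probe sets were lower with dox in both fractions, by differences of -1.64 to -0.64 in Sca1+ and -0.75 to -0.13 in Sca1- cells. The mean over them put the Suz12 difference in Sca1+ cells past 2-fold, at -1.03. Eed, which binds the methylated histone, read 9.24 and 9.13 without dox and 8.95 and 8.81 with it. It had the smallest dox differences of the 10 genes in both fractions, -0.29 and -0.32, and its other probe set lay at or next to the floor.

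**Figure D1:**
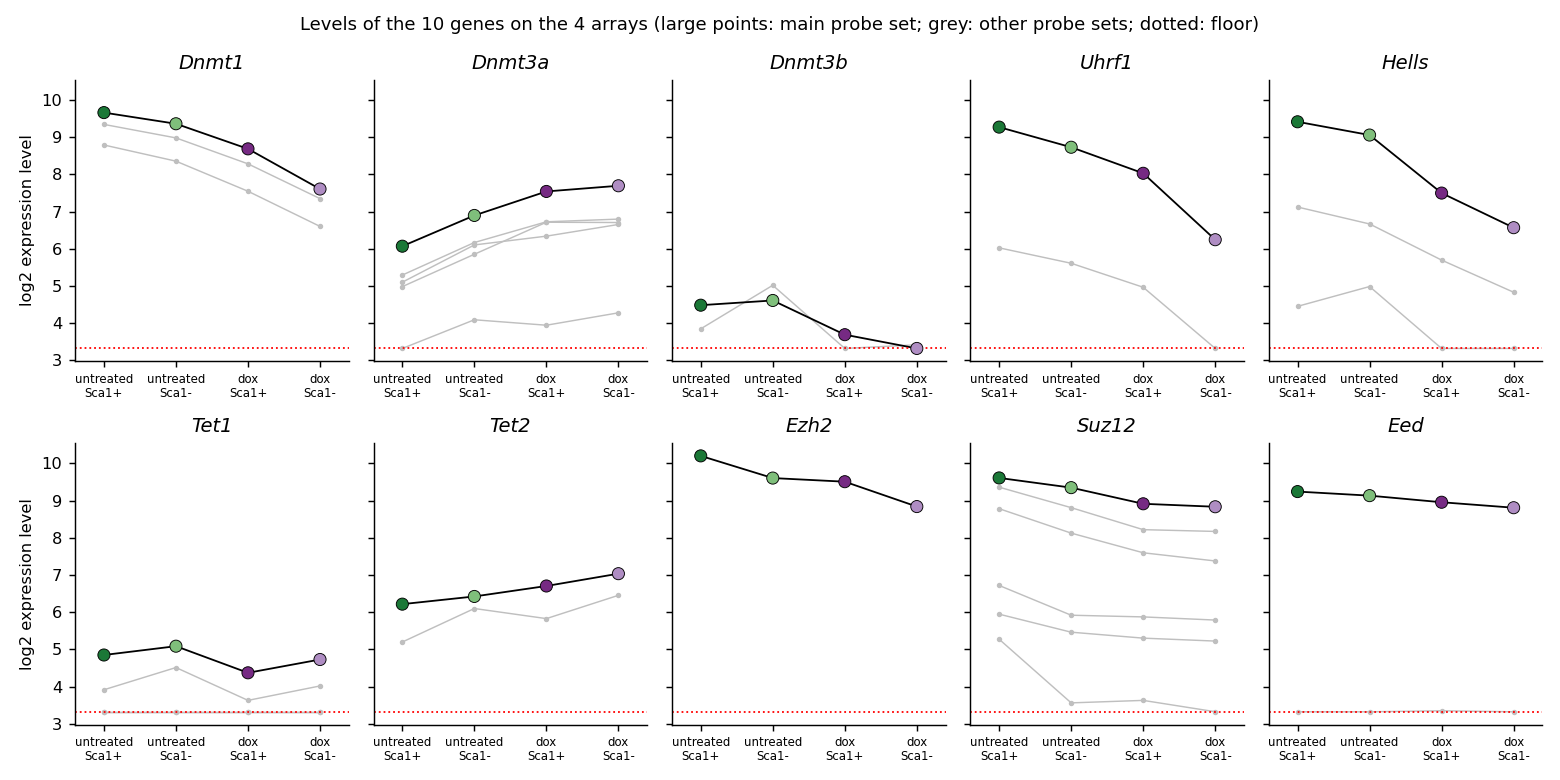
Log2 expression level (y axis) of each of the 10 genes on each array (x axis: Sca1+ and Sca1- cells without dox, then Sca1+ and Sca1- cells with dox). Large points joined in black are the main probe set, grey lines the other probe sets, and the dotted line is the floor at 3.32. Hells runs from 9.41 down to 6.57 and Uhrf1 from 9.27 to 6.24, Dnmt3a runs up from 6.07 to 7.69, and Eed stays between 8.81 and 9.24.

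Counted by size, 2 of the 10 genes were 2-fold or more below their untreated level in Sca1+ cells, Uhrf1 and Hells, where 12.9% of the 12264 genes were. With probe sets averaged, Dnmt1 and Suz12 joined them at -1.09 and -1.03, 4 of 10 against 10.5% of all genes. Dnmt3a alone was 2-fold higher there, against 8.47% of all genes. In Sca1- cells 4 of the 10 were lower by this rule, Dnmt1, Dnmt3b, Uhrf1 and Hells, against 11.3%, and 0 were higher, against 7.2%. In both fractions together Uhrf1 and Hells were lower, 2 of 10 against 8.56% of all genes, and none was higher, against 5.29%. Ignoring size, 8 of the 10 were lower with dox in both fractions and 2, Dnmt3a and Tet2, were higher in both, while 36.5% and 41.8% of all genes did so. The median dox difference over the 10 genes was -0.69 in Sca1+ and -0.64 in Sca1- cells, and over all genes it was 0.03 and 0.02. With arrays centred on the median of all probe sets, the share of higher genes among all those 2-fold different with dox in Sca1+ cells was 27.3% in place of 39.7%, and Dnmt1 passed 2-fold there at -1.17.

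At 1.5-fold, 6 of the 10 genes were lower with dox in Sca1+ cells against 20.8% of all genes, and 1 was higher against 19.2%. In Sca1- cells 5 were lower against 19.4%, and Dnmt3a and Tet2 were higher against 16.8%. Lower in both fractions were Dnmt1, Dnmt3b, Uhrf1, Hells and Ezh2, 5 of 10 against 15%, and Dnmt3a was higher in both against 11.8%. Between the fractions without dox, Ezh2 was higher in Sca1+ cells against 8.47% of all genes and Dnmt3a lower against 9.02%. With dox, Dnmt1, Uhrf1, Hells and Ezh2 were higher against 6.89%, and 0 were lower against 8.99%. Ezh2 was the 1 gene higher both times, against 2.92%, and 0 were lower both times, against 2.83%.

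In the additive limma fit over the 4 arrays, 5 of the 10 genes were lower with dox once p values were adjusted (Benjamini-Hochberg, adjusted p under 0.05), beside 14.8% of all genes, and Dnmt3a was higher, beside 11.9%. Hells had a dox effect of -2.20 ± 0.21 (SE, limma, adjusted p = 0.00856), lower in both fractions. Uhrf1 had -1.86 ± 0.34 (limma, adjusted p = 0.0242) and Dnmt1 -1.36 ± 0.24 (limma, adjusted p = 0.0237), both lower in both fractions. Ezh2 was at -0.73 ± 0.16 (limma, adjusted p = 0.0367), Dnmt3b at -1.04 ± 0.20 (limma, adjusted p = 0.027) and Dnmt3a at 1.13 ± 0.23 (limma, adjusted p = 0.0301). Suz12, Tet2, Tet1 and Eed did not pass in limma, with adjusted p of 0.0598, 0.0707, 0.126 and 0.221. With an intensity trend in limma's prior, Suz12 also passed as lower, 6 of 10 beside 21% of all genes, and Tet2 as higher, 2 of 10 beside 19.7%. Each gene had 1 residual degree of freedom, which is the gap between its dox differences in Sca1+ and Sca1- cells. The errors therefore rest on that gap and on the spread pooled over all genes. They do not measure the spread between cultures. The Dnmt3b effect takes in the floor value of its dox Sca1- array. Its size is therefore a lower bound, and its gap and error are shaped by the floor. With the floor raised to a linear level of 32, the Dnmt3b dox differences were 0 in both fractions.

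**Figure D2:**
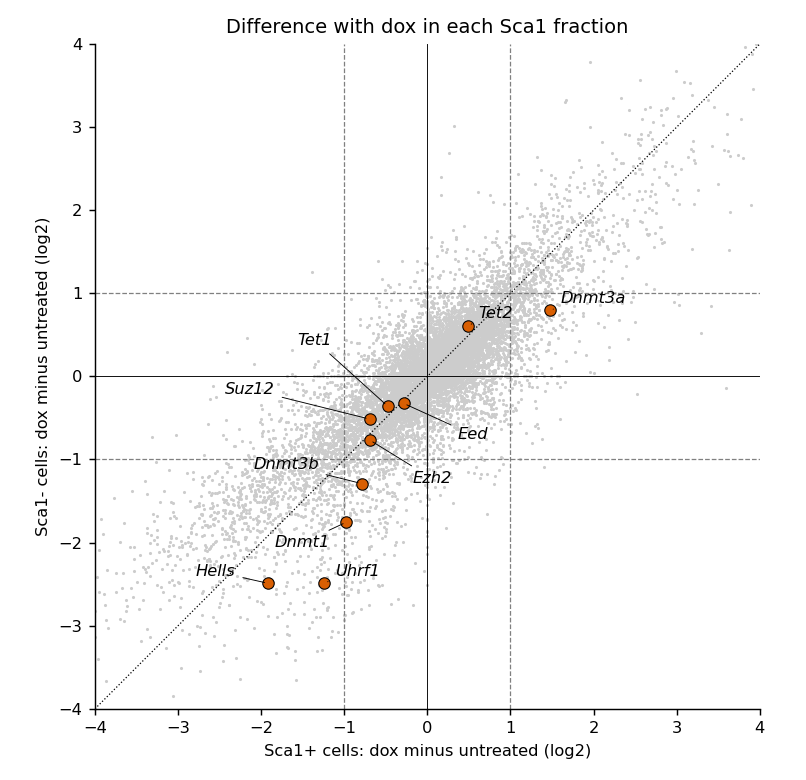
Log2 difference between dox and untreated cells in the Sca1+ fraction (x axis) and in the Sca1- fraction (y axis). Grey points are the genes of the background, 66 of which lie outside the axes, orange points are the 10 genes, dashed lines mark 2-fold and the dotted line marks equal differences. Hells, Uhrf1, Dnmt1 and Dnmt3b lie below the dotted line on the negative side, and Dnmt3a lies at 1.47 and 0.80.

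The dox difference of the maintenance genes was larger in the Sca1- fraction. The difference of Uhrf1 was -1.24 in Sca1+ and -2.49 in Sca1- cells, a gap of 1.24 log2 units, and 3.69% of all genes had a gap of at least 1 in this direction, with Uhrf1 the only 1 of the 10. None had it the other way, against 3.44%. The gap was 0.78 for Dnmt1 and 0.57 for Hells. With arrays centred on the median of all probe sets, the gaps of Uhrf1, Dnmt1 and Hells were smaller, at 1.02, 0.55 and 0.35. With arrays centred on probe sets at a linear level of 100 or more, they were 1.31, 0.85 and 0.64. For Dnmt3a the gap as deposited was 0.67, through a larger increase in Sca1+ cells. For Ezh2, Suz12, Eed, Tet1 and Tet2 the gap lay between -0.18 and 0.07 by the main probe sets. For Ezh2 and Eed its sign turned, to -0.16 and -0.19, under centring on all probe sets, and for Tet1 and Tet2, to 0.02 and 0.08, when probe sets were averaged. For Suz12 the averaged gap was -0.61, with its 5 other probe sets between -1.41 and -0.41. That centring took the share of genes with the larger signed difference in Sca1+ cells, among all with a gap of at least 1, from 51.7% to 24.7%. The gap was not tested, since it uses all 4 arrays and leaves no residual.

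Between the sorted fractions, none of the 10 genes differed 2-fold without dox, where 3.07% of all genes were higher and 3.33% lower in Sca1+ cells. The share of higher ones among these was 48.0%, or 70.0% under centring on all probe sets. With dox, Uhrf1 was 3.45-fold and Dnmt1 2.11-fold higher in Sca1+ cells, 2 of 10 against 2.52% of all genes, and 0 were lower, against 2.98%. Hells was 1.91-fold higher, a log2 difference of 0.93, which was 0.60 with its probe sets averaged. None passed 2-fold both with and without dox, where 1.08% of all genes were higher and 0.881% lower. Averaging the probe sets of each gene left the Dnmt1 difference with dox just under 2-fold, at 0.99. Ezh2 was higher in Sca1+ cells by nearly the same amount each time, 1.51-fold without and 1.59-fold with dox.

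The remaining genes differed by less than 2-fold by their main probe sets, some in the other direction. Dnmt3a was 1.77-fold lower in Sca1+ cells without dox and 1.11-fold lower with it. Tet1 stood at -0.24 and -0.36 on the log2 scale and Tet2 at -0.21 and -0.33, although the Tet2 value without dox changed sign, to 0.02, when arrays were centred on the median of all probe sets. Averaged over its probe sets, Tet2 was at -0.55 without dox. Suz12 stood at 0.26 and 0.08 by its main probe set, but at 0.74 without dox when its probe sets were averaged, the other 5 lying between 0.48 and 1.71. Eed stood at 0.11 and 0.15. In all, 6 of the 10 genes were higher in Sca1+ cells both times, where 24.4% of all genes were, and for 7 of the 10 the signed difference was larger with dox, where 48.7% of all genes had this. The limma fit called 0 of the 10 and 0 of all genes for Sca1 at an adjusted p under 0.05. At an unadjusted p under 0.05 it called 4 of the 10 higher, beside 6.17% of all genes, and 0 lower, beside 7.52%. With an intensity trend in limma's prior, which called 3.87% of all genes higher and 3.64% lower at an adjusted p under 0.05, Dnmt1, Uhrf1, Hells and Ezh2 passed.

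**Figure D3:**
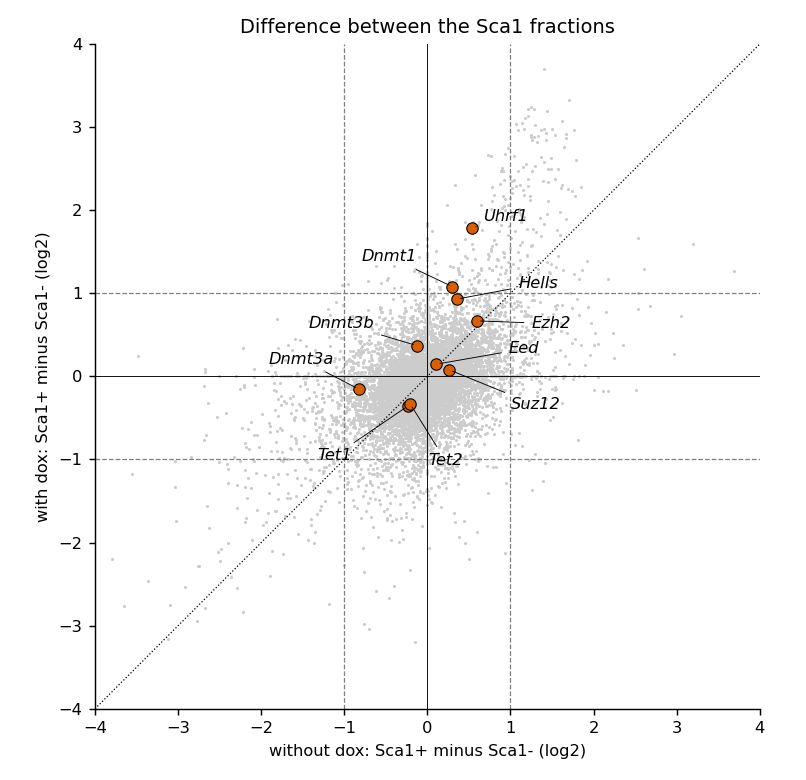
Log2 difference between Sca1+ and Sca1- cells without dox (x axis) and with dox (y axis). Grey points are the genes of the background, 3 of which lie outside the axes, orange points are the 10 genes, dashed lines mark 2-fold and the dotted line marks equal differences. Uhrf1 lies at 0.54 without and 1.79 with dox and Dnmt1 at 0.30 and 1.08, both above the dotted line. The signs of Dnmt3b and Tet2 without dox, -0.13 and -0.21, turned under other scalings.

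By main probe sets, the 4 arrays fell in the same order for most of the genes. Dnmt1, Uhrf1, Hells, Ezh2, Suz12 and Eed each read highest in untreated Sca1+, then untreated Sca1-, then dox Sca1+, and lowest in dox Sca1- cells, 6 of 10 against 6.82% of all genes. Dnmt3a and Tet2 had exactly the reverse order, 2 of 10 against 11.4%. Under the other scalings Dnmt3b joined the first group, with the arrays centred on the median of all probe sets or quantile normalized, and Tet2 left the second under that centring. Within the first group, the neighbouring arrays were often close. Suz12 differed by 0.08 between the dox arrays and Eed by 0.11 between the untreated ones.

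Genes of the dividing cell moved with these differences. A list of 39 S-phase genes was read, of which 37 had a probe set, and it left out Uhrf1 and Hells. Of the list, 22 genes were 2-fold lower with dox in both fractions, against 8.56% of all genes. Its median dox difference was -1.17 in Sca1+ and -1.48 in Sca1- cells. Its summed linear level was 27603, 20389, 14652 and 7494 in untreated Sca1+ and Sca1- cells and then in dox-treated Sca1+ and Sca1- cells. This is the same order as for the group of 6, and 31 of the 37 single genes, 83.8%, had it too. The ribonucleotide reductase gene Rrm2 was at -1.84 and -3.10 and the cyclin gene Ccne2 at -1.68 and -3.27 with dox. The S-phase list was higher in Sca1+ cells by a median of 0.40 without and 0.97 with dox. Clspn was its single gene 2-fold higher both times, against 1.08% of all genes. In neither condition was a gene of the list 2-fold lower in the Sca1+ fraction.

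The G2/M list of 48 genes with a probe set differed more between the fractions. Its median dox difference was -0.91 in Sca1+ and -2.01 in Sca1- cells, with 20 genes 2-fold lower in both, against 8.56% of all genes. The proliferation marker gene Mki67 stood at -2.56 and -3.12 and the mitotic kinase gene Aurkb at -1.69 and -3.10. The summed linear level of the list was 40632 and 20110 in untreated Sca1+ and Sca1- cells and 22142 and 7257 with dox. Unlike the S-phase sum, it was therefore higher in dox Sca1+ than in untreated Sca1- cells. Only 15 of the 48 single genes, 31.2%, had the array order of the S-phase sum, against 6.82% of all genes. The list was higher in Sca1+ cells by a median of 1.23 without and 2.35 with dox. In both conditions 35 of the 48 were 2-fold higher there, against 1.08% of all genes. Among them Kif2c was at 1.71 without and 3.33 with dox, and Ckap2 at 1.76 and 2.96. The part of cell division in the levels of the 10 genes was not tested. In these bulk samples, fewer dividing cells and less RNA per cell cannot be told apart.

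Among partners in DNA methylation, most genes differed little. For this and the following lists, 8.56% of all genes were 2-fold lower and 5.29% higher with dox in both fractions. Cdca7, which works with Hells in chromatin remodelling and is also on the S-phase list, was 2.29-fold lower with dox in Sca1+ and 3.32-fold lower in Sca1- cells by its main probe set. Its other probe set was at the floor. It was the 1 gene of 11 partners past 2-fold in both fractions, and none was higher. The list's median mean dox difference was -0.14, and over all genes it was 0.05. Of 7 methyl-CpG readers with a probe set, Zbtb38 was lower, 3.47-fold and 3.21-fold, and none was higher. Its 3 probe sets had mean dox differences of -1.74, for the main one, to -0.37. Of 8 genes of demethylation and repair, 4 were 2-fold lower in Sca1+ cells, against 12.9% of all genes, and 1 was higher, against 8.47%. None passed in both fractions.

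Accessory subunits of PRC2 went both ways while the PRC1 list stayed within 2-fold. Jarid2, a DNA-binding partner of PRC2, was higher with dox, at 6.39 and 6.53 in untreated Sca1+ and Sca1- cells and 7.42 and 7.83 with dox, 2.03-fold and 2.46-fold. Phf19, a Polycomb-like subunit that binds methylated lysine 36 of histone H3, was lower, at 5.81 and 4.74 without dox and 4.03 and 3.65 with it, 3.43-fold and 2.13-fold. These were the 2 genes past 2-fold in both fractions among 8 other PRC2 genes tested. The 3 Jarid2 probe sets had mean dox differences of 0.98 to 1.27. The mean dox difference was -1.43 for the main Phf19 probe set and 0 for the other. Ezh1, the paralogue of Ezh2, stood at 0.27 and 0.42, opposite in sign to Ezh2 (this gene and Cdkn2a below were named after their values were seen). None of 21 PRC1 genes was 2-fold different with dox in either fraction, and the list median was -0.09. Of all genes, 12.9% were lower and 8.47% higher in Sca1+ cells, and 11.3% and 7.2% in Sca1- cells.

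Kdm6b, the demethylase that removes the mark of Ezh2, was higher with dox. It read 7.98 and 8.20 in untreated Sca1+ and Sca1- cells and 9.55 and 9.59 with dox, 2.97-fold and 2.62-fold. Its 3 probe sets had mean dox differences of 1.28 to 1.56, and it was the only 1 of 6 genes for removing Polycomb marks past 2-fold.

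Known Polycomb targets were represented by Cdkn2a, Cdkn2b and the Hox clusters. Of 35 such genes with a probe set, 18 were at the floor on all arrays and 16 passed the filter. Of the 16, 3 were 2-fold higher with dox in both fractions, against 5.29% of all genes, and 1 was lower, against 8.56%. Cdkn2b, an inhibitor of cyclin-dependent kinases, was 2.43-fold and 2.46-fold higher, from 8.10 and 8.23 to 9.38 and 9.53. Its neighbour Cdkn2a was at 0.60 and 0.82. Hoxc4 was 4.14-fold higher with dox in the Sca1+ fraction and, against the floor, at least 5.85-fold higher in the other, Hoxa4 2.63-fold and 3.04-fold higher, and Hoxb3 3.18-fold and 2.08-fold lower. The second Hoxa4 probe set had a mean dox difference of only 0.60 and the second Hoxb3 probe set of -0.49. The list median of the mean dox difference was 0.48.

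Of 12 germline genes that promoter methylation is known to silence in body cells, 10 lay at the floor on every array, among them Dazl, Ddx4 and Mael. Sycp3 lay next to it on 1 array, and Rhox5 was the 1 gene to pass the filter. Rhox5, an X-linked homeobox gene, was at the floor on both untreated arrays and read 6.35 in dox Sca1+ and 5.40 in dox Sca1- cells, which put the dox level at least 8.17-fold higher in the first and at least 4.21-fold in the second fraction, from its single probe set. DNA methylation and histone marks were not measured in these samples.

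**Figure D4:**
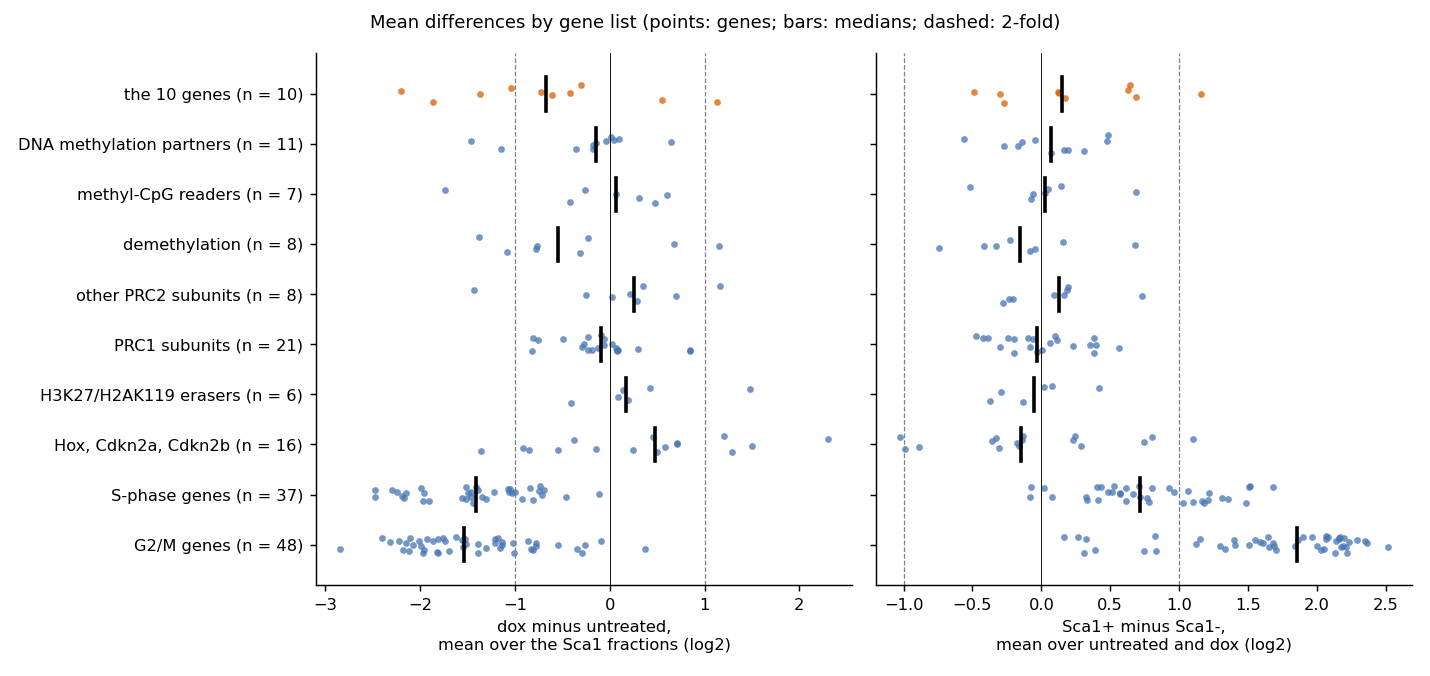
Mean log2 difference with dox over the fractions (left) and between Sca1+ and Sca1- cells over both treatments (right) for each tested gene of 10 lists. Points are genes, black bars are list medians and dashed lines mark 2-fold. The median of the 10 genes is -0.67 for dox and 0.15 for Sca1, that of the S-phase list is -1.41 and 0.72, and that of the G2/M list -1.54 and 1.86.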

How the data were processed

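RNA from the sorted cells was labelled by a 3′ IVT protocol and hybridised to Affymetrix arrays, per the labels' protocols. The deposited table holds log2 expression levels for 45101 probe sets on 4 arrays. How the probes were summarized and scaled, and with which software, is not stated in the labels. The shared minimum of the deposited values on each array shows a floor at a linear level of 10. Names came from a table of GEO's platform annotation, which covers 35890 probe sets and gives 1 symbol for 34958, and a gene was represented by its probe set of highest mean. Differences of log2 levels were taken between arrays. The additive fit used limma 3.58.1 in R 4.3.3 on 12264 genes, with Benjamini-Hochberg adjustment over all of them. The code of the size rule and of the fit was run on simulated arrays with independent noise. Those arrays held no spread between cultures, so the run gives no check on that spread. The genes and lists were chosen with earlier results of these data known. Besides the 10 genes, text names were limited to list genes past 2-fold in both dox or both Sca1 differences, at most 4 a list and direction, and 2 for the S-phase and G2/M lists; cell type markers and other exceptions are named as such. Alternatives covered probe sets, scaling, floor, filter and fold.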

Additional observations from a re-analysis of the deposited data

Results flagged for a closer look

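By main probe sets, Dnmt3b was the 1 gene of the 10 whose Sca1 difference had opposite signs in the untreated and the dox-treated cells. The difference was -0.13 without dox and at least 0.37 with dox, where the Sca1- array was at the floor. Its other probe set had no change of sign, at -1.17 without dox and -0.10 with dox, and the mean of both was -0.65 and 0.14. The change of sign was not tested, all 4 values lie near the floor, and the value without dox turned positive under 2 scalings, at 0.10 with arrays centred on the median of all probe sets and 0.01 with quantile normalization.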

How the results depend on the processing

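When all probe sets of a gene were averaged, the number of genes 2-fold different with dox in Sca1+ cells went from 3 to 5 and that between the fractions with dox from 2 to 1. At 1.5-fold the counts were 7 for dox in Sca1+ cells, 7 for dox in Sca1- cells and 6 in both, and 2, 4 and 1 for Sca1 without dox, with dox and both times; 15% of all genes were then lower and 11.8% higher with dox in both fractions. The additive limma fit called 6 genes for dox where the size rule called 2, and with an intensity trend in the prior it called 4 genes for Sca1 instead of 0. The remaining counts stayed within 1.5 times, and the medians over the 10 genes kept their sign, under each alternative of scaling, floor and filter. Of 250 differences of single genes under 5 alternatives of probe set, scaling and floor, 231 kept sign and side of 2-fold, none past 2-fold changed sign, 3 moved past 2-fold, 1 fell below it and 15 changed sign or became 0. Of those 15, 8 came from raising the floor to a linear level of 32, which set all Dnmt3b differences to 0, including the one past 2-fold. Centring each array on its median over all probe sets, a value close to the floor, moved the median of all genes by -0.19 for dox in Sca1+ cells and by 0.22 for Sca1 without dox, and the share of higher genes among those 2-fold different from 39.7% to 27.3% and from 48.0% to 70.0%. No paired analysis was possible because each group has 1 array and the labels give no replicate numbers to block on. The additive limma fit, which compares treatments within fractions and fractions within treatments, is the closest to one. The order of Hells and Uhrf1 by dox difference in Sca1- cells turned with probe sets averaged and with quantile normalization, where Uhrf1 had the larger one at -2.39 and -2.51. The floor limits Dnmt3b and Tet1, whose signals are dim.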
